A study of Mus musculus with 2 samples.

Results

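The respiratory chain genes of mouse skin were taken as a set of 105 genes of the 31053 counted, 13 encoded in the mitochondrial genome (symbols starting mt-) and 92 in the nucleus. They were chosen by symbol: all mt-Nd, mt-Co, mt-Atp and mt-Cytb genes, the Nduf, Uqcr and Atp5 genes, the subunits Cox4 to Cox8, Sdha to Sdhd, Cycs and Cyc1. Of 108 matching rows, the 105 with at least 20 UMIs in both libraries together were kept. A UMI (unique molecular identifier) stands for 1 captured RNA molecule. Complex I has 7 mt-encoded and 36 nuclear-encoded members, with 8 nuclear-encoded assembly factors beside them. Complex II has 4 nuclear-encoded members. Complex III has 1 mt-encoded and 9 nuclear-encoded members, cytochrome c is 1 nuclear gene, complex IV has 3 and 18, and complex V has 2 and 16.

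The skin came from C57Bl6 mice aged 8 weeks, both male and female. One group had 100 ng of sitagliptin in 100 µl of PBS injected into the dermis, and the control group had PBS alone. Sitagliptin inhibits DPP4, a cell-surface peptidase. The labels also name 48 h, but not clearly which interval it is. Each treatment is 1 droplet library (10x Genomics Chromium, polyadenylated RNA), and the labels do not give the number of animals behind it. No test between treatments was therefore possible, and every interval given here covers counting error only. In the names of the deposited files the letter that could stand for a treatment is the initial of the other one for both libraries. The libraries are called sitagliptin-labelled and PBS-labelled for this reason, since an exchange would turn every direction given.

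The respiratory chain of the inner mitochondrial membrane passes electrons from NADH (complex I) and succinate (complex II) through complex III and cytochrome c to oxygen (complex IV), and complex V, the ATP synthase, makes ATP from the proton gradient that results. Complex II is built from nuclear genes alone, and the other complexes need subunits from both genomes. Mitochondrial genes are transcribed as long precursors that are cut mostly at the tRNAs between them. In skin, the basal layer of the epidermis and the hair follicle hold the dividing keratinocytes, and cells of the upper epidermal layers lose their mitochondria as they cornify.

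The sequences of mt-Atp8 and mt-Nd4l are printed because these 2 members, the shortest of the 13 mt-encoded ones, were the ones whose level was higher in the sitagliptin-labelled library in all 5 keratinocyte classes compared here. mt-Atp8, a small membrane subunit of ATP synthase, lies at chrM:7766-7969 on the + strand of mm10, with 204 bases of which the last 43 are also the start of mt-Atp6. mt-Nd4l, a membrane subunit of complex I, lies at chrM:9877-10173 on the + strand, with 297 bases of which the last 7 are also the start of mt-Nd4. Capitals mark the bases shared with the next gene (GENCODE vM21 transcripts).
mt-Atp8: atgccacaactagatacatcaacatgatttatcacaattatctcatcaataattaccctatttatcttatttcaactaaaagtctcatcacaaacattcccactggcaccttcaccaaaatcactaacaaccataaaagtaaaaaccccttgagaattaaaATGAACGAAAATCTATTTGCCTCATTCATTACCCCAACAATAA
mt-Nd4l: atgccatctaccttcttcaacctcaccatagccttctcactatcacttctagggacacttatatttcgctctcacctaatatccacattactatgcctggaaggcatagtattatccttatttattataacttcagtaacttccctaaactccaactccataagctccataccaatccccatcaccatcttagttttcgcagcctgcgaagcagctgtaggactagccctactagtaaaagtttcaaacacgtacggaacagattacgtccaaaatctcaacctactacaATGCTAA
Both overlapping pairs lack a tRNA between them and are known to remain joined in 1 mature mRNA each. Reads from the shared bases cannot be told apart by gene. Of the 31-base words in mt-Atp8, 7.47% also occur in transcripts of other genes, and of those in mt-Nd4l 98.9% do. Over the last 400 bases at most, this share was 98.1% to 100% for mt-Co1, mt-Co2, mt-Co3, mt-Atp6 and mt-Nd3. It was 0% to 30.3% for the remaining mt-encoded members.

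Barcodes were retained at 500 or more genes, 1000 or more UMIs and no more than 10% of UMIs from mt- genes. This left 18380 of 22085 barcodes with a median of 2197 UMIs in the sitagliptin-labelled library, and 5932 of 10456 with a median of 6902.5 UMIs in the PBS-labelled library. The mt- genes are exactly the 13 mt-encoded members, so the limit caps their summed level. It was exceeded by 16.8% of the sitagliptin-labelled and 39.9% of the PBS-labelled barcodes. Cell classes are clusters named from marker genes, and each name means cells like that type. Cells left unnamed made up 30.02% of the sitagliptin-labelled and 12.9% of the PBS-labelled cells. The libraries shared 75 barcodes, of which 41 were retained in both. The 5 classes compared were basal (863 and 757 cells in the sitagliptin-labelled and the PBS-labelled library), suprabasal (3948 and 995), dividing (1457 and 883), upper follicle (1536 and 755) and outer root sheath or bulge keratinocytes (1195 and 214), the last called outer-sheath keratinocytes below. Cluster 1 held 2383 sitagliptin-labelled and 27 PBS-labelled suprabasal cells.

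Levels are counts of a gene per 1000000 UMIs of the class (CPM). They come from 3′ counting and are not divided by length, so levels of different genes are not compared. Markers of other cell types, and signs of RNA quality, also differed between the libraries within the 5 keratinocyte classes. For 8 fibroblast markers the sums were lower. In sum 2.13 to 21.9 CPM were counted in the sitagliptin-labelled against 36.2 to 77.6 CPM in the PBS-labelled classes, with 1 to 4 against 0 to 1 of the markers at 0. The same held for 9 macrophage markers. In sum 3.65 to 7.71 CPM were counted in the sitagliptin-labelled against 79.1 to 201 CPM in the PBS-labelled classes, with 0 to 3 against 0 of the markers at 0. It also held for 8 skeletal muscle markers. In sum 2.65 to 10.3 CPM were counted in the sitagliptin-labelled against 37.6 to 88.6 CPM in the PBS-labelled classes, with 2 to 5 against 0 to 1 of the markers at 0. For 5 erythroid markers, genes of red blood cells, the PBS-labelled sums reached the highest level of these lists. In sum 1.11 to 38.97 CPM were counted in the sitagliptin-labelled against 5.15 to 2226 CPM in the PBS-labelled classes, with 0 to 3 against 0 to 1 of the markers at 0. Of 16 genes known to be induced by tissue dissociation, the median log2 ratio was -0.71 to -0.22. Malat1, an RNA retained in the nucleus, was at 1.12 to 1.47 times its PBS-labelled level. The part of these differences in the results below was not tested.

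mt-Atp8 stood apart from the other members. In basal keratinocytes it had 216 CPM sitagliptin-labelled against 95.7 CPM PBS-labelled (781 sitagliptin-labelled and 558 PBS-labelled UMIs), a ratio of 2.26 (2.03 to 2.53). In suprabasal keratinocytes it had 217 CPM sitagliptin-labelled against 94.6 CPM PBS-labelled, a ratio of 2.3 (2.15 to 2.45). The 95% intervals of the levels did not overlap in any of the 5 classes. In dividing keratinocytes it had 246 CPM sitagliptin-labelled against 104 CPM PBS-labelled, a ratio of 2.37 (2.24 to 2.52). In upper follicle keratinocytes it had 264 CPM sitagliptin-labelled against 111 CPM PBS-labelled, a ratio of 2.39 (2.2 to 2.59). In outer-sheath keratinocytes, the class with the fewest PBS-labelled cells of the 5, it had 261 CPM sitagliptin-labelled against 117 CPM PBS-labelled, a ratio of 2.22 (1.85 to 2.69). The intervals of the 5 ratios overlapped. Without cluster 1 the suprabasal ratio was 2.43.

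**Figure D1:**
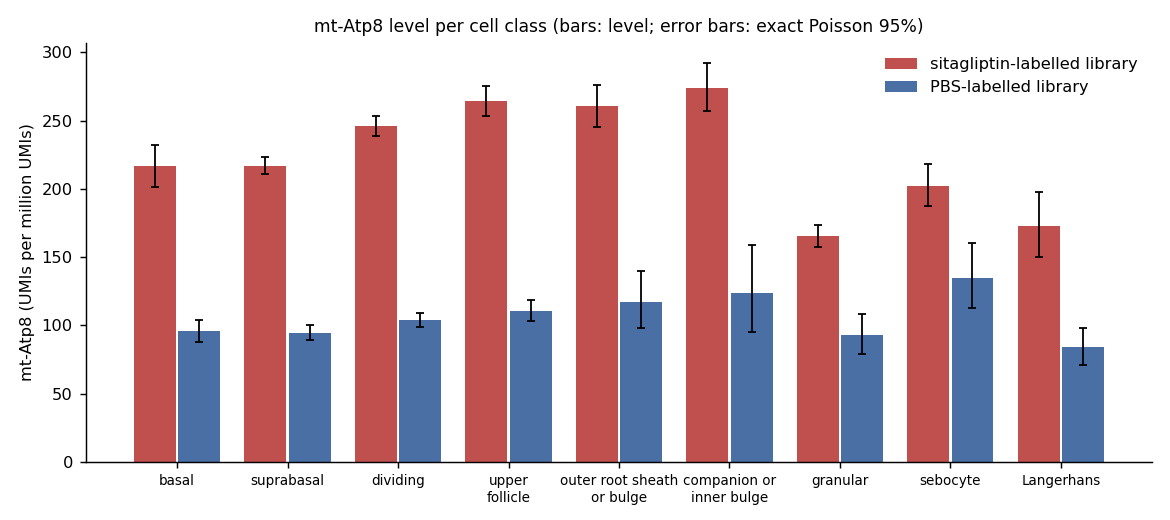
mt-Atp8 level in CPM in 9 cell classes, sitagliptin-labelled library left and PBS-labelled library right. Bars are the level in 1 library and error bars exact Poisson 95% intervals. Every sitagliptin-labelled bar is higher, from 274 CPM sitagliptin-labelled against 124 CPM PBS-labelled in companion or inner bulge keratinocytes to 165 CPM sitagliptin-labelled against 93.03 CPM PBS-labelled in granular keratinocytes.

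The difference extended to cells that are not keratinocytes. Langerhans cells, the dendritic cells of the epidermis, had 173 CPM sitagliptin-labelled against 83.8 CPM PBS-labelled of mt-Atp8, and fibroblasts had 167 CPM sitagliptin-labelled against 61.5 CPM PBS-labelled. The fibroblast value rests on 27 UMIs in 59 sitagliptin-labelled cells. There the mt-encoded sum was also 1.36 times the PBS-labelled one, and the mt-Atp8 share of mt-encoded UMIs was 2.0 times (1.28 to 3.0). In sebocytes, the lipid-storing cells of the sebaceous gland, it was 202 CPM sitagliptin-labelled against 135 CPM PBS-labelled, where different clusters hold most cells of the 2 libraries. Within sebocyte cluster 21, which both libraries fill, it was 294 CPM sitagliptin-labelled against 141 CPM PBS-labelled. Of the 15 clusters with at least 50 cells in each library, 15 had mt-Atp8 at least 1.5-fold higher in the sitagliptin-labelled library, with ratios of 1.52 to 2.88 and a median of 2.38. These clusters come from the same 2 libraries and are not independent replicates.

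The difference was as large when mt-Atp8 was set against other mitochondrial RNA. Its share of all mt-encoded UMIs was 0.379% sitagliptin-labelled against 0.154% PBS-labelled in basal, 0.386% sitagliptin-labelled against 0.164% PBS-labelled in suprabasal, 0.446% sitagliptin-labelled against 0.184% PBS-labelled in dividing, 0.437% sitagliptin-labelled against 0.176% PBS-labelled in upper follicle and 0.438% sitagliptin-labelled against 0.17% PBS-labelled in outer-sheath keratinocytes. For every 1000 UMIs of mt-Atp6, with which it shares an mRNA, basal keratinocytes had 21.5 UMIs sitagliptin-labelled against 8.79 UMIs PBS-labelled of mt-Atp8. mt-Atp6 itself had 10078 CPM sitagliptin-labelled against 10892 CPM PBS-labelled there, a ratio of 0.925 (0.913 to 0.937). The 2 genes of this mRNA differed in opposite directions between the libraries. Of the 31-base words at the end of mt-Atp6, 99.2% also occur in transcripts of other genes, and the part of this was not tested. The PBS-labelled share was not low in every cluster. Unnamed cluster 25 held 1 sitagliptin-labelled and 59 PBS-labelled cells. Its leading genes were muscle genes such as Ttn and Myh4, but it scored highest for markers of inner root sheath or hair shaft keratinocytes. Its PBS-labelled share was 0.316% (0.263% to 0.376%), or 18.8 UMIs per 1000 of mt-Atp6. The class named skeletal muscle had a PBS-labelled share of 0.117% (0.0562% to 0.215%), on 10 UMIs of mt-Atp8. In the named PBS-labelled classes and in unnamed clusters 12 and 19 the share was at most 0.205%.

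The share was next compared at matched depth, because the libraries differ in UMIs per cell. It was higher in the deepest than in the shallowest barcodes of both libraries, though in the PBS-labelled library the range from 4000 to 8000 UMIs, at 0.143%, lay below that from 2000 to 4000 UMIs, at 0.149%. From 1000 to 2000 UMIs it was 0.276% sitagliptin-labelled against 0.124% PBS-labelled, and above 16000 UMIs it was 0.439% sitagliptin-labelled against 0.198% PBS-labelled. Within each of the 5 depth ranges the sitagliptin-labelled share was 2.2 to 2.81 times the PBS-labelled one. At matched percentages of mt- UMIs up to 10%, it was 2.06 to 3.31 times as high. The difference was thus present at every matched depth and mt- percentage compared. Each range pools barcodes of all cell classes, so the mix of classes was not matched. The shallowest range held 8186 sitagliptin-labelled and 493 PBS-labelled barcodes.

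**Figure D2:**
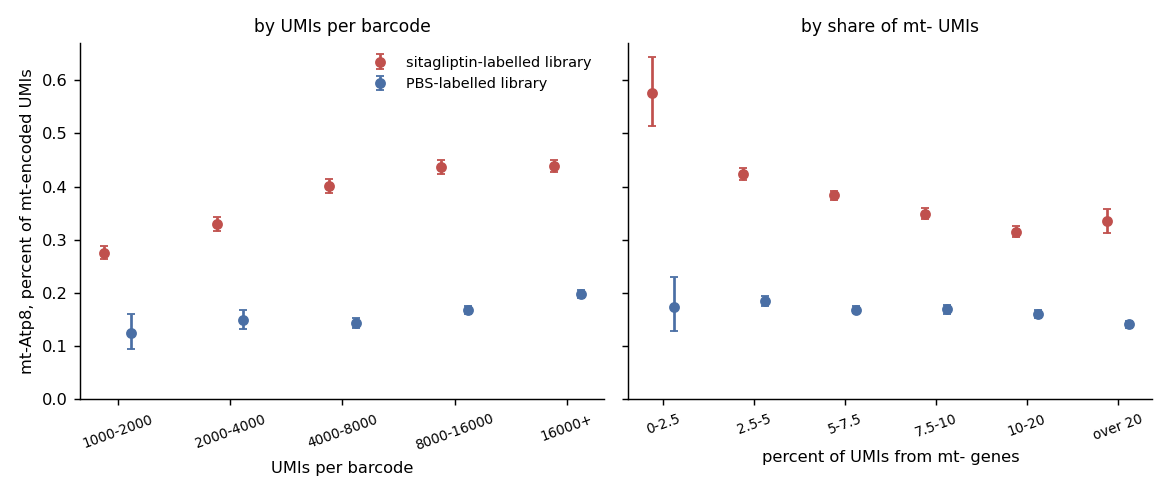
mt-Atp8 as a percentage of mt-encoded UMIs, by UMIs per barcode (left, retained barcodes) and by the percentage of UMIs from mt- genes (right), with exact 95% intervals. The sitagliptin-labelled points lie above the PBS-labelled ones in every range, for example at 0.276% sitagliptin-labelled against 0.124% PBS-labelled in the shallowest barcodes.

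mt-Nd4l was the other mt-encoded member higher in all 5 classes, by a smaller amount. It had 359.5 CPM sitagliptin-labelled against 272 CPM PBS-labelled in basal keratinocytes, a ratio of 1.32 (1.23 to 1.42), and 341 CPM sitagliptin-labelled against 271 CPM PBS-labelled in suprabasal keratinocytes, a ratio of 1.26 (1.21 to 1.31). It had 345 CPM sitagliptin-labelled against 281 CPM PBS-labelled in dividing, 346 CPM sitagliptin-labelled against 305 CPM PBS-labelled in upper follicle and 369.8 CPM sitagliptin-labelled against 328 CPM PBS-labelled in outer-sheath keratinocytes, a ratio of 1.13 (1.0 to 1.27) in the last. Its interval in outer-sheath keratinocytes is the widest of the 5, and in none of the classes did it reach 1.5-fold.

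Another 6 mt-encoded members were lower in the sitagliptin-labelled library in all 5 classes. They are 46.2% of the 13, against 10.6% of all 9982 genes with at least 20 UMIs in each class. mt-Atp8 and mt-Nd4l, the higher ones, are 15.4%, against 12.3% of all genes. The classes come from the same pair of libraries, so these shares are descriptions. Members and all genes were not matched on level, and the genes reach down to 20 UMIs in a class. mt-Cytb, the cytochrome b of complex III, had 5144 CPM sitagliptin-labelled against 6016 CPM PBS-labelled in basal keratinocytes, a ratio of 0.855 (0.84 to 0.87), and ratios of 0.796 to 0.935 over the 5 classes. mt-Nd1, a core subunit of complex I, had 4383 CPM sitagliptin-labelled against 4878 CPM PBS-labelled there and ratios of 0.841 to 0.918. mt-Nd4, also of the complex I core and the partner of mt-Nd4l in 1 mRNA, had 3884 CPM sitagliptin-labelled against 4479 CPM PBS-labelled and ratios of 0.819 to 0.963. These are modest differences on high counts, with level intervals that did not overlap in any of the 5 classes. The catalytic subunit gene mt-Co2 of complex IV had ratios of 0.854 to 0.977, mt-Co3 of the same complex 0.814 to 0.962, and mt-Atp6, part of the proton channel of ATP synthase, 0.856 to 0.961. The other 5 had ratios on both sides of 1: mt-Nd2 0.963 to 1.11, mt-Co1, the catalytic core of complex IV, 0.935 to 1.04, mt-Nd3 0.889 to 1.1, mt-Nd5 0.935 to 1.12 and mt-Nd6 0.996 to 1.73. mt-Nd6, the one member on the - strand, had 21.4 CPM sitagliptin-labelled against 12.4 CPM PBS-labelled in suprabasal keratinocytes, a ratio of 1.73 (1.43 to 2.09), and ratios of 0.996 to 1.15 in the other 4 classes. Without cluster 1, whose cells are nearly all sitagliptin-labelled, 1 suprabasal member, mt-Atp8, was at least 1.5-fold apart instead of 3. mt-Nd6 then had a ratio (CPM + 1) of 1.34 and Cox6b2 one of 1.43.

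**Figure D3:**
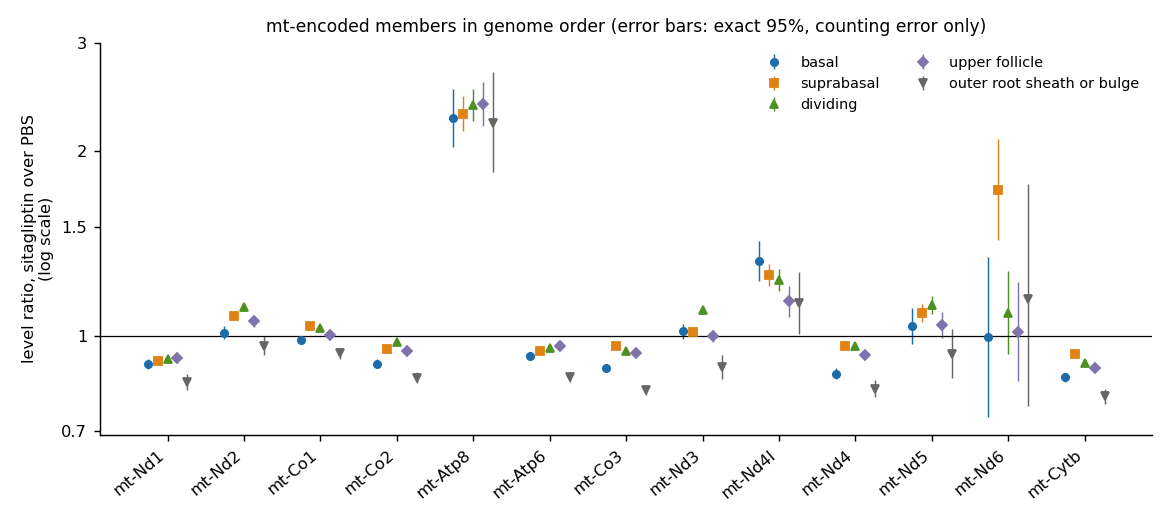
Level ratio of the 13 mt-encoded members, sitagliptin-labelled over PBS-labelled library on a log axis, in genome order, with 1 marker for each of 5 keratinocyte classes and exact 95% intervals. mt-Atp8 lies at 2.22 to 2.39 and mt-Nd4l at 1.13 to 1.32, while mt-Cytb lies at 0.796 to 0.935.

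Summed over all 13, the mt-encoded members had 57162 CPM sitagliptin-labelled against 62123 CPM PBS-labelled in basal keratinocytes, a ratio of 0.92 (0.915 to 0.925). The ratio of the sums was 0.975 in suprabasal, 0.978 in dividing, 0.958 in upper follicle and 0.861 in outer-sheath keratinocytes. The 92 nuclear-encoded members together had 22709.8 CPM sitagliptin-labelled against 23241 CPM PBS-labelled in basal keratinocytes, a ratio of 0.977 (0.969 to 0.986), and ratios of 0.932 to 1.01 over the 5 classes. Both sums were within 1.5-fold in each class under the mt- limit of 10%. With no mt- limit the mt-encoded sum in outer-sheath keratinocytes was 0.621 times the PBS-labelled one, past 1.5-fold. UMIs of mt-encoded members per UMI of nuclear-encoded members were 2.52 sitagliptin-labelled against 2.67 PBS-labelled in basal, 2.92 sitagliptin-labelled against 2.79 PBS-labelled in suprabasal, 2.54 sitagliptin-labelled against 2.43 PBS-labelled in dividing, 2.82 sitagliptin-labelled against 2.97 PBS-labelled in upper follicle and 3.15 sitagliptin-labelled against 3.6 PBS-labelled in outer-sheath keratinocytes. This quotient was lower in the sitagliptin-labelled library in 3 classes and higher in the suprabasal and dividing ones, but its direction turned with the settings in 3 of the 5. With no mt- limit it was 0.767 times the PBS-labelled one in suprabasal and 0.941 times in dividing keratinocytes, and with a limit of 5% it was 1.02 times in basal keratinocytes. In upper follicle and outer-sheath keratinocytes it was lower under each setting that gave a value.

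Few members differed by 1.5-fold or more, taken on CPM + 1. With at least 20 UMIs in the class, 101 of the 105 members were measured in each of the 5 classes. In basal keratinocytes 1 was higher (background 3.41% of all genes so measured) and 0 lower (4.09%). In suprabasal keratinocytes 3 were higher (5.86%) and 0 lower (2.09%), and in dividing keratinocytes 1 (3.35%) and 0 (2.8%). In upper follicle keratinocytes 2 were higher (3.16%) and 0 lower (2.52%), and in outer-sheath keratinocytes 1 (8.45%) and 1 (5.86%). The share of members past 1.5-fold was below the background in each class and direction, but members and all genes were not matched on level. mt-Atp8 is among the higher ones in each class. The others were mt-Nd6 and Cox6b2 in suprabasal keratinocytes, the complex I assembly factor Ndufaf5 in upper follicle keratinocytes with 6.98 CPM sitagliptin-labelled against 3.58 CPM PBS-labelled (58 sitagliptin-labelled and 25 PBS-labelled UMIs), and Cox6b2 as the lower one in outer-sheath keratinocytes.

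Among members averaging at least 50 CPM over both libraries (89, and 90 in dividing keratinocytes), mt-Atp8 was the one past 1.5-fold in each class. The background of such genes higher and lower was 1.38% and 0.497% in basal, 2.39% and 0.659% in suprabasal, 3.06% and 0.717% in dividing, 1.57% and 0.308% in upper follicle, and 2.68% and 1.24% in outer-sheath keratinocytes. Ranked by ratio from the top among those genes, mt-Atp8 was number 4 of 2817 in basal, 7 of 2885 in suprabasal, 1 of 3069 in dividing, 4 of 2921 in upper follicle and 11 of 3056 in outer-sheath keratinocytes. A gene outside the chain with a difference in the same direction in each class, smaller than that of mt-Atp8, was Rps27rt, a cytosolic ribosomal protein gene. It had 88.7 CPM sitagliptin-labelled against 41.5 CPM PBS-labelled in basal keratinocytes and ratios (CPM + 1) of 1.41 to 2.11. Rpl10, another, had 983 CPM sitagliptin-labelled against 1606 CPM PBS-labelled there and ratios of 0.561 to 0.648.

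The members as a whole lay close to equal levels. Their median log2 ratio was -0.04 in basal, -0.10 in suprabasal, -0.08 in dividing, 0.01 in upper follicle and -0.02 in outer-sheath keratinocytes. The median of all genes measured was 0.05 in suprabasal and -0.03 in dividing keratinocytes. Members averaging at least 50 CPM lay within 1.1-fold for 61 of 89 in basal keratinocytes (all such genes, 58.8%), 52 of 89 in suprabasal keratinocytes (all such genes, 57.95%), 57 of 90 in dividing keratinocytes (all such genes, 51.3%), 71 of 89 in upper follicle keratinocytes (all such genes, 61.1%) and 55 of 89 in outer-sheath keratinocytes (47.7%). As percentages the members' shares were 68.5%, 58.4%, 63.3%, 79.8% and 61.8% in that order, with the smallest gap to all genes in suprabasal keratinocytes. Above the limit of 50 CPM, members and genes were not matched on level.

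Complex by complex, the nuclear-encoded sums differed little. Complex I subunits had 6047 CPM sitagliptin-labelled against 6250.0 CPM PBS-labelled in basal keratinocytes and ratios of 0.93 to 1.01 over the 5 classes. Complex II had ratios of 0.947 to 1.08, complex III 0.911 to 1.02, complex IV 0.919 to 0.998 and complex V 0.945 to 1.0. The complex I assembly factors had ratios of 0.923 to 1.09 and cytochrome c 0.824 to 0.969. No complex reached 1.5-fold in any of the 5 classes.

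Small differences of single subunits had 1 direction in all 5 classes for 29 of the 92 nuclear-encoded members, taken on CPM + 1: 5 were higher and 24 lower in the sitagliptin-labelled library in each. With at least 20 UMIs in each of the 5 classes, 88 were measured, of which 5 were higher (5.68%) and 23 lower (26.1%) in all 5. Of all 9982 genes so measured, 12.3% were higher and 10.6% lower in all 5. The classes come from the same pair of libraries, so these shares are a description and not a test. Here too, members and all genes were not matched on level. Ndufa3, an accessory subunit of complex I, had 186 CPM sitagliptin-labelled against 159 CPM PBS-labelled in basal keratinocytes, a ratio of 1.17 (1.06 to 1.29), and 1.08 to 1.17 over the classes. Atp5k, a membrane subunit of ATP synthase, had 594 CPM sitagliptin-labelled against 493 CPM PBS-labelled, a ratio of 1.2 (1.14 to 1.27), and 1.07 to 1.2. Atp5o, the stalk subunit OSCP that holds the catalytic head, had 334 CPM sitagliptin-labelled against 302 CPM PBS-labelled and ratios of 1.04 to 1.27. The other higher ones were Ndufa9 of complex I, with ratios of 1.0 to 1.28, and Cox6a1 of complex IV, with 1.04 to 1.12. All 5 stayed below 1.5-fold.

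The 24 lower members include the muscle isoform Cox8b, which had under 20 UMIs in each class and is described further on. Cox5a of complex IV (chr9:57521274-57532426, + strand, mm10) was among the 6 with the lowest ratio in each of the 5 classes. It had 329 CPM sitagliptin-labelled against 390.4 CPM PBS-labelled in basal, 285 CPM sitagliptin-labelled against 349 CPM PBS-labelled in suprabasal, 312 CPM sitagliptin-labelled against 387 CPM PBS-labelled in dividing, 266 CPM sitagliptin-labelled against 298 CPM PBS-labelled in upper follicle and 179 CPM sitagliptin-labelled against 229.9 CPM PBS-labelled in outer-sheath keratinocytes. Its ratios were 0.78 to 0.894, with an interval below 1 in each class. Cox5b, a zinc-binding subunit of the same complex, had 387 CPM sitagliptin-labelled against 453 CPM PBS-labelled in basal keratinocytes and ratios of 0.744 to 0.995. Cox8a, the common form of the smallest subunits of complex IV, had ratios of 0.807 to 0.92. Atp5g1, 1 of the genes for the c-ring of ATP synthase, had 449 CPM sitagliptin-labelled against 557 CPM PBS-labelled and ratios of 0.805 to 0.897. Ndufa8 and Ndufb5, accessory subunits of complex I, had ratios of 0.808 to 0.937 and 0.835 to 0.889. Uqcrfs1, the Rieske iron-sulfur protein of complex III, had 119.7 CPM sitagliptin-labelled against 127 CPM PBS-labelled and ratios of 0.817 to 0.942.

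The electron carriers and complex II lay within 1.5-fold in all 5 classes. Cycs, cytochrome c, had 134 CPM sitagliptin-labelled against 149 CPM PBS-labelled in basal keratinocytes, a ratio of 0.902 (0.805 to 1.01), and ratios of 0.824 to 0.969. Cyc1, the cytochrome c1 of complex III, had 144 CPM sitagliptin-labelled against 154 CPM PBS-labelled and ratios of 0.85 to 1.01. In complex II, Sdha, which binds FAD, had 62.6 CPM sitagliptin-labelled against 67.1 CPM PBS-labelled and ratios of 0.934 to 1.1, and Sdhb, the iron-sulfur subunit, 95.6 CPM sitagliptin-labelled against 101 CPM PBS-labelled and 0.951 to 1.09. The membrane anchors Sdhc and Sdhd had ratios of 0.966 to 1.04 and 0.698 to 1.05, with 35.6 CPM sitagliptin-labelled against 50.9 CPM PBS-labelled of Sdhd in dividing keratinocytes. The member with the most UMIs in a complex was similar as well: Cox4i1 of complex IV had 1072 CPM sitagliptin-labelled against 1056 CPM PBS-labelled in basal keratinocytes, Atp5b, the catalytic subunit of ATP synthase, 689.9 CPM sitagliptin-labelled against 634 CPM PBS-labelled, Uqcrc1, a core protein of complex III, 516 CPM sitagliptin-labelled against 494 CPM PBS-labelled, and Ndufb9 of complex I 324 CPM sitagliptin-labelled against 357 CPM PBS-labelled. Reads of some members could be split with near-identical copies. In the last 400 bases, 31 of the 92 nuclear-encoded members had over 10% of their 31-base words in transcripts of other genes, among them Atp5o with 49.7%, Atp5g1 with 45.6% and Cox5b with 29.1%. The median log2 ratio over all retained cells was -0.05 for these 31 and -0.07 for the other 61.

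**Figure D4:**
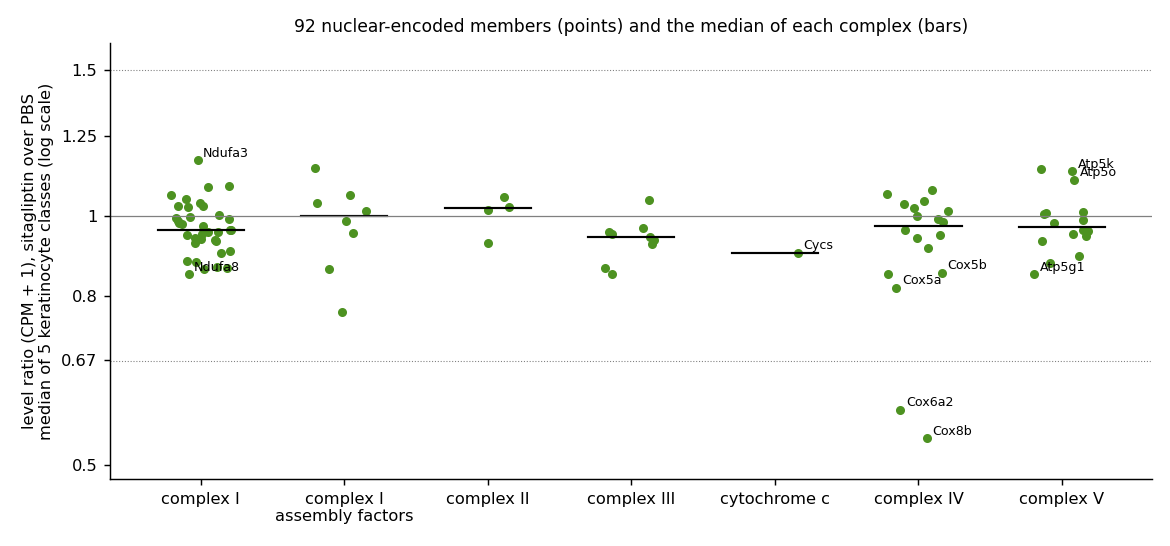
Level ratio (CPM + 1) of the 92 nuclear-encoded members, sitagliptin-labelled over PBS-labelled library on a log axis, each point the median of 5 keratinocyte classes. Black bars are the median of each complex and dotted lines mark 1.5-fold. All points lie between the dotted lines except the muscle isoforms Cox6a2 and Cox8b, at 0.583 and 0.538, whose PBS-labelled levels were at most 2.77 CPM in these classes.

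Genes that serve the chain from outside were compared in the same 5 classes, by how often a gene was at least 1.5-fold higher or lower in a class. The background percentages of each class are those given above. Of all genes, 3.16% (upper follicle) to 8.45% (outer-sheath) were higher and 2.09% (suprabasal) to 5.86% (outer-sheath) lower. Both were thus highest in outer-sheath keratinocytes, where many of the calls below fall. The 77 genes for mitochondrial ribosomal proteins, which translate the 13 mt-encoded members, gave 6 higher and 1 lower of 385 gene and class pairs. Of the higher ones 1 was in dividing and 5 in outer-sheath keratinocytes, led in both by Mrpl1, with 24.3 CPM sitagliptin-labelled against 15.3 CPM PBS-labelled in dividing and 27.2 CPM sitagliptin-labelled against 7.39 CPM PBS-labelled in outer-sheath keratinocytes. Genes for mitochondrial DNA and RNA factors gave 2 higher and 2 lower of 134 gene and class pairs, all in outer-sheath keratinocytes. Further assembly factors gave 4 higher and 3 lower of 204 gene and class pairs, among them the copper chaperone Cox17 with 43.8 CPM sitagliptin-labelled against 28.6 CPM PBS-labelled in basal keratinocytes. Nubpl was lower in basal keratinocytes, with 3.88 CPM sitagliptin-labelled against 6.69 CPM PBS-labelled, and higher in outer-sheath keratinocytes, with 7.46 CPM sitagliptin-labelled against 2.77 CPM PBS-labelled. The PBS-labelled outer-sheath class held 1083054 UMIs in all. Its levels of Nubpl and Mrpl1 therefore rest on very few UMIs, too few to read a direction for Nubpl there. Import and quality control genes gave 0 higher and 6 lower of 144 gene and class pairs, the lower ones in each class but outer-sheath keratinocytes. Tomm6, of the outer membrane translocase, had 8.04 CPM sitagliptin-labelled against 15.3 CPM PBS-labelled in basal keratinocytes. Citric acid cycle and pyruvate dehydrogenase genes gave 3 higher and 1 lower of 133 gene and class pairs. Carriers and channels gave 2 higher and 1 lower of 75 gene and class pairs, and mitochondrial antioxidant genes 1 higher and 4 lower of 49 gene and class pairs, with Prdx3, a peroxiredoxin, at 6.32 CPM sitagliptin-labelled against 10.4 CPM PBS-labelled in suprabasal keratinocytes. Regulators of respiratory genes gave 2 higher and 2 lower of 58 gene and class pairs, all in outer-sheath keratinocytes, and Esrra, which encodes the nuclear receptor ERR alpha, was at 30.5 CPM sitagliptin-labelled against 22.8 CPM PBS-labelled in basal keratinocytes.

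Across cell classes the nuclear-encoded members covered a wider range than between libraries. These are descriptions of clusters within 1 library. In the PBS-labelled library, over the 16 named classes with at least 30 cells, their sum was highest in skeletal muscle, with 64802 CPM (63717 to 65901) in 55 cells, followed by 38424 CPM in sebocytes. It was lowest in fibroblasts, with 16138 CPM, a ratio of highest to lowest of 4.02. Skeletal muscle had 0.628 mt-encoded UMIs per nuclear-encoded UMI, against 2.67 in basal keratinocytes. The mt- limit bears on that quotient: without it, 69 muscle cells had a quotient of 0.929. The sitagliptin-labelled library held 0 cells of this class. Sebocytes had 25263 CPM sitagliptin-labelled against 38424 CPM PBS-labelled of the nuclear-encoded sum, but cluster 5 gave 1359 sitagliptin-labelled and 11 PBS-labelled cells and cluster 21 gave 109 sitagliptin-labelled and 66 PBS-labelled cells, so the pair compares different clusters.

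Tissue isoforms of complex IV set muscle apart. Cox6a2, Cox8b and Cox7a1 are the heart and skeletal muscle forms of subunits whose common forms are Cox6a1, Cox8a and Cox7a2. Cox6a2 (chr7:128205435-128206387, - strand) had 2050.3 CPM in PBS-labelled skeletal muscle (1861 to 2254) and at most 8.14 CPM in the other 15 classes. Cox8b had 1855 CPM there and at most 12.4 CPM elsewhere, and Cox7a1 544 CPM and at most 19.8 CPM. The common Cox6a1 was at 85.8 CPM in muscle and 294 CPM in basal keratinocytes, and Cox8a at 362 and 516 CPM. Muscle thus carried the muscle forms beside lower levels of these common ones, while Cox7a2 was at 772 and 447 CPM. Skeletal muscle markers were also counted in the PBS-labelled keratinocyte classes, at the sums given above, and their part in these low levels was not tested. Other members with a high level in muscle were Sdhb, at 482 CPM against 43.9 CPM in granular keratinocytes, and Ndufaf5, at 76.3 CPM.

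Over all retained cells these isoforms were lower in the sitagliptin-labelled library, which had no muscle class. Cox6a2 had 0.0235 CPM sitagliptin-labelled against 8.73 CPM PBS-labelled, Cox8b 0.153 CPM sitagliptin-labelled against 8.0 CPM PBS-labelled and Cox7a1 0.47 CPM sitagliptin-labelled against 3.43 CPM PBS-labelled. They were the 3 members at least 1.5-fold lower there, where 13% of all genes were lower and 2.58% higher (4.13% and 3% of genes averaging at least 50 CPM). mt-Atp8, with 218 CPM sitagliptin-labelled against 99.4 CPM PBS-labelled, was the 1 member higher. In such a sum, fewer cells of a type and less RNA per cell cannot be told apart, and the muscle class held 0 sitagliptin-labelled against 55 PBS-labelled cells.

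Ndufa4l2 differed widely among the keratinocytes. It lies at chr10:127514967-127517154, + strand, is a relative of the complex IV subunit Ndufa4 and is known in human cells to be induced by hypoxia. In basal keratinocytes it had 657 CPM sitagliptin-labelled against 671 CPM PBS-labelled, in suprabasal 348 CPM sitagliptin-labelled against 389.7 CPM PBS-labelled and in dividing keratinocytes 303 CPM sitagliptin-labelled against 306 CPM PBS-labelled. In outer-sheath keratinocytes it had 129 CPM sitagliptin-labelled against 90.5 CPM PBS-labelled, a ratio of 1.43 (1.15 to 1.79), and in upper follicle keratinocytes 41.3 CPM sitagliptin-labelled against 39.1 CPM PBS-labelled. The order of the 5 classes was the same in both libraries, basal highest and upper follicle lowest. Ndufa4 itself was highest in granular keratinocytes, with 703 CPM sitagliptin-labelled against 1279.6 CPM PBS-labelled, where different clusters hold most cells of the 2 libraries, and had 320.4 CPM sitagliptin-labelled against 334 CPM PBS-labelled in basal keratinocytes.

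Other members were restricted to some classes or low. Cox6b2, known as the testis form, had 13.95 CPM sitagliptin-labelled against 22.2 CPM PBS-labelled (58 sitagliptin-labelled and 24 PBS-labelled UMIs) in outer-sheath keratinocytes, its highest named class of the PBS-labelled library, and 2.74 CPM sitagliptin-labelled against 0.502 CPM PBS-labelled (59 sitagliptin-labelled and 6 PBS-labelled UMIs) in suprabasal ones. Cox4i2, the lung and vascular form of subunit 4, was counted in pericytes or smooth muscle cells with 4 sitagliptin-labelled UMIs against 1 PBS-labelled UMI, too few for a comparison. Ndufaf8, an assembly factor of complex I, was highest in PBS-labelled sebocytes, with 98.1 CPM.

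**Figure D5:**
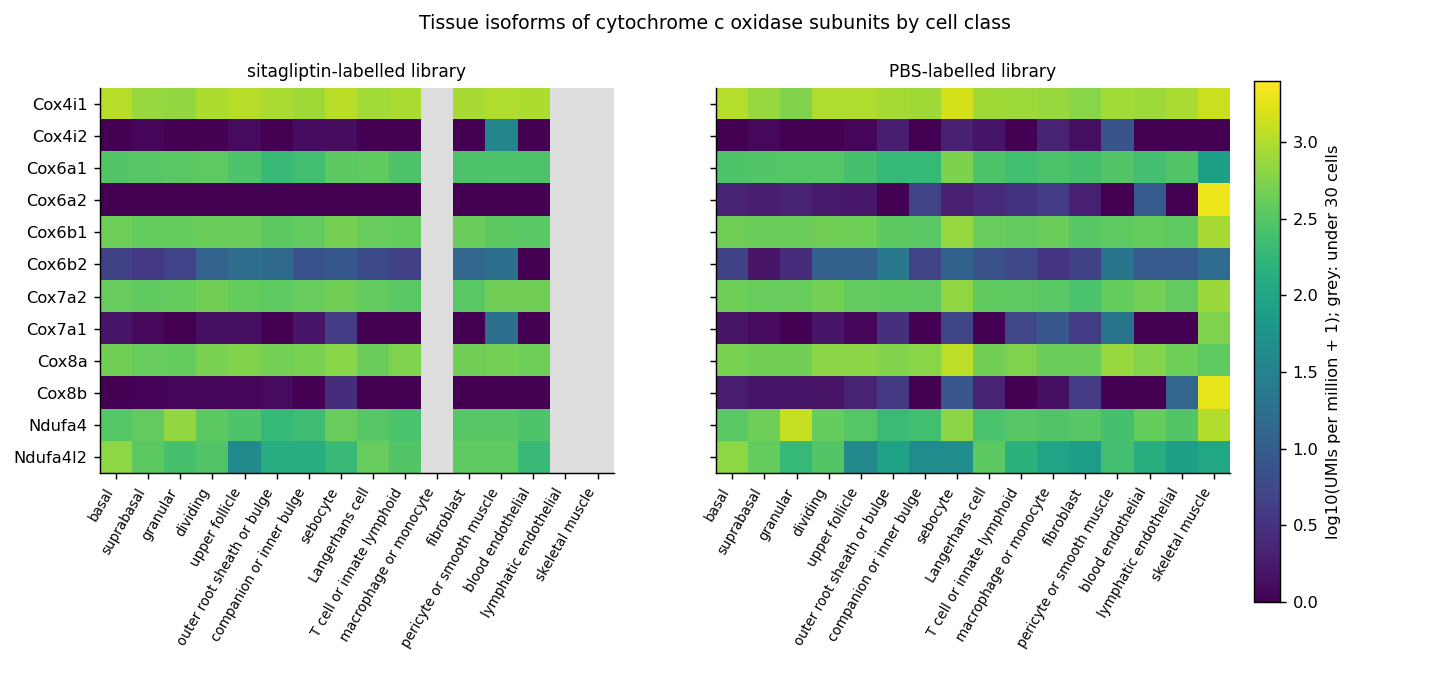
Level of 12 complex IV isoform genes, as log10 of CPM + 1, in 16 cell classes of the sitagliptin-labelled library (left) and the PBS-labelled library (right), with classes under 30 cells in grey. Cox6a2, Cox8b and Cox7a1 stand out in skeletal muscle, at 2050.3, 1855 and 544 CPM, and Ndufa4l2 is highest in basal keratinocytes in both libraries.

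Over the 16 PBS-labelled classes, the 6 genes outside the chain whose level (log2 of CPM + 1) had the highest Pearson correlation with that of mt-Atp8 were Rabggta, Ube2q2, Prkci, Prlr, Copg2 and Fam98b, with r of 0.797 to 0.873. The other mt-encoded members had r of 0.427 (mt-Nd6) to 0.862 (mt-Nd1). The 6 genes are the top of all those ranked, and mt-Atp8 had as few as 10 UMIs in a class, in skeletal muscle. The classes share 1 library, and the correlations are descriptions.

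Promoters of the nuclear-encoded members were searched for motifs of 4 factors known to act on respiratory genes, on both strands of RefSeq windows from 250 bases before to 50 after the start (GRCm38.p6). Windows were found for 74 of the 92 members and for 27025 genes in all. The NRF1 motif was in 18 (24.3%) against 4.78% of all windows, and the ERR element AAGGTCA in 8 (10.8%) against 4.66%. The YY1 motif AANATGGC was in 16 (21.6%) against 6.23%, and the ETS motif CCGGAAG, which GABP binds, in 17 (22.97%) against 9.12%. A match is a description of the letters and not a bound site, and a base can belong to matches of different motifs. The promoter of Atp5k, higher in the sitagliptin-labelled library in all 5 classes, is shown beside those of the muscle isoforms Cox8b and Cox7a1, with motif matches in capitals. They lie at chr5:108434350-108434649 (- strand), chr7:140900397-140900696 (- strand) and chr7:30183921-30184220 (+ strand).
Atp5k: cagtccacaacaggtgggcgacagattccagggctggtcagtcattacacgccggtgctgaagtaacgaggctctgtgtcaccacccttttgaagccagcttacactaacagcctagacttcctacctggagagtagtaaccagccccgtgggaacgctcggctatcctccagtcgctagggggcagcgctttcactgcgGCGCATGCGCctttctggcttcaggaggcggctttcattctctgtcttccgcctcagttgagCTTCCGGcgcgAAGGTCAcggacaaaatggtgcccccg
Cox8b: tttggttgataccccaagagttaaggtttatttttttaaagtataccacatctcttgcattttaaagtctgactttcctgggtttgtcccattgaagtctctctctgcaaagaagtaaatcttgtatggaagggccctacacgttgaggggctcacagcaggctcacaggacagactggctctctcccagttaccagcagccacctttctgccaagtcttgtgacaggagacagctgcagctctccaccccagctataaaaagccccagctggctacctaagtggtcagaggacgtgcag
Cox7a1: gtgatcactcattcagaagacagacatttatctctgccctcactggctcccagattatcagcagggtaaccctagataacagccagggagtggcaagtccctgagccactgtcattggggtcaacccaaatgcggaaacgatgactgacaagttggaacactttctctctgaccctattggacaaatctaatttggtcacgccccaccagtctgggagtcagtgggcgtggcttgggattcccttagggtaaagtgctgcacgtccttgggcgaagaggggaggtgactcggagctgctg
The Atp5k window holds 3 matches, and the windows of the muscle isoforms hold 0. Of the other members higher in all 5 classes, Ndufa3 and Ndufa9 had the YY1 motif alone, Atp5o that of NRF1 alone, and Cox6a1 those of NRF1 and ETS. Sdhd, with ratios on both sides of 1, had the same motifs as Atp5k. A relation of motifs to direction was not tested.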

How the data were processed

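The deposited files hold raw UMI counts per gene and barcode, 1 matrix for each library. Cell Ranger 3.1.0 and the build mm10 are named in the submitters' processing notes. Gene positions and transcripts were taken from GENCODE vM21 and promoters from RefSeq. Analyses used Python 3.11.15, scanpy 1.11.5, scipy 1.17.1 and leidenalg 0.10.2.

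Retained barcodes (limits in the text above) held 85056939 UMIs in the sitagliptin-labelled and 57160088 UMIs in the PBS-labelled library. They were clustered together on log values scaled to 10000 counts per cell, using 2000 variable genes less the 6 members among them, 30 principal components, 15 neighbours and Leiden resolution 1, which gave 28 clusters. Limits of the naming rule were set with the data in view. Scrublet called 0 and 2 cells, so it did not work here and no doublets were removed.

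UMIs were summed per library and class. Levels carry exact Poisson, shares exact Clopper-Pearson and ratios exact conditional binomial 95% intervals. With 1 library per treatment, a fold of 1.5 on CPM + 1 stands in for a test. Genes were named by rule: all mt-encoded members, the 6 highest and 6 lowest nuclear-encoded ratios per class at 50 CPM or more, tissue isoforms, complex II, Cycs, Cyc1, the most abundant member of each complex, the 8 most variable across classes, and the ends of each other list. The text gives those of most interest. Members, lists and rules were chosen with earlier results of these data known. The computation was tested on simulated data.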

Additional observations from a re-analysis of the deposited data

Results flagged for a closer look

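Cox6b2 lay in opposite directions in 2 keratinocyte classes. On CPM + 1 the sitagliptin-labelled level was 2.49 times the PBS-labelled level in suprabasal keratinocytes (59 sitagliptin-labelled and 6 PBS-labelled UMIs) and 0.646 times in outer root sheath or bulge keratinocytes (58 sitagliptin-labelled and 24 PBS-labelled UMIs). Without cluster 1, whose cells are nearly all sitagliptin-labelled, the suprabasal value was 1.43 (16 sitagliptin-labelled against 5 PBS-labelled UMIs) and was no longer past 1.5-fold. The difference between the classes was not tested.

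Barcodes above the mt- limit of 10% were left out of the comparisons made on retained barcodes. They enter the values given with a limit of 20% or with no mt- limit. These barcodes also held mt-Atp8 at a higher share of mt-encoded UMIs in the sitagliptin-labelled library. At 10% to 20% mt- UMIs the share was 0.315% sitagliptin-labelled (0.305% to 0.326%) against 0.16% PBS-labelled (0.153% to 0.168%). Above 20% it was 0.335% sitagliptin-labelled against 0.141% PBS-labelled.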

How the results depend on the processing

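No paired analysis was possible because each treatment has 1 library, and no library could be left out. mt-Atp8 was at least 1.5-fold higher in the sitagliptin-labelled library in 74 of 74 combinations of keratinocyte class and setting, with ratios of 1.63 to 2.57. The median over classes of its ratio was 2.3, and 2.09 with no mt- limit. That of the mt-encoded sum was 0.958, and 0.982 with a mt- limit of 5%, 0.906 with a limit of 20%, 0.821 with no mt- limit, 0.949 at 1000 genes and 2000 UMIs, 0.945 at 3000 UMIs, 0.941 with cells thinned to 1000 UMIs, 0.945 with a total lacking mitochondrial, ribosomal and haemoglobin genes, 0.945 as a mean over cells, 0.954 with members left in the clustering and 0.945 at resolution 2. That of the nuclear-encoded sum was 0.977, and 0.951 with a mt- limit of 5%, 0.994 with no mt- limit, 0.954 with a total lacking mitochondrial, ribosomal and haemoglobin genes and 0.96 at Leiden resolution 0.5. That of mt-encoded UMIs per nuclear-encoded UMI was 0.95, and 1.02 with a mt- limit of 5%, 0.919 with a limit of 20%, 0.826 with no mt- limit, 0.941 at 1000 genes and 2000 UMIs, 0.939 at 3000 UMIs, 0.956 with cells thinned to 1000 UMIs, 0.956 as a mean over cells, 0.986 at Leiden resolution 0.5 and 0.943 at resolution 2, so its direction turned under the 5% limit, where outer root sheath or bulge keratinocytes had too few cells. Calls of members past 1.5-fold numbered 9 over the 5 classes, and 16 with no mt- limit, 20 with cells thinned to 1000 UMIs and 5 at 50 CPM or more. Complexes past 1.5-fold numbered 0, and 1 with cells thinned to 1000 UMIs. The ratio of highest to lowest class in the nuclear-encoded sum was 4.02, and 4.35 with a mt- limit of 5%, 3.93 with no mt- limit, 2.4 at 1000 genes and 2000 UMIs, 2.39 at 3000 UMIs, 4.45 with cells thinned to 1000 UMIs, 4.47 as a mean over cells, 2.39 with members left in the clustering and 4.45 without the 8% highest doublet scores, with muscle below 30 cells or unnamed where it is near 2.4. The summed muscle isoform level was 4449 CPM, and 5540.4 with a total lacking mitochondrial, ribosomal and haemoglobin genes and 5089 as a mean over cells. Calls in all the other gene lists together numbered 81, and 40 at 50 CPM or more. The 81 include lists that do not serve the chain. Dissociation genes gave 0 higher and 31 lower of 80 gene and class pairs. Cytosolic ribosomal protein genes gave 4 higher and 5 lower of 459 pairs, and RNAs retained in the nucleus 0 higher and 1 lower of 21. Leaving out cluster 1 was added after the data were seen. Where no cause is named, the cause was not tested. Depth limits members under about 20 UMIs, and intervals cover counting error only.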
